A study of Homo sapiens with 80 samples.

Results

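Jurkat T cells held at 9 g for 9 min (hypg9) were compared directly with Jurkat T cells held at 9 g for 75 s (hypg75s). The comparison took the 6 libraries of each group by their sample titles, which makes 12 of the 80 libraries of the series. The line, clone E6-1, derives from a human T cell leukemia and is a single clone that grows in suspension, so no primary T cells are represented. Cells of both groups sat in 1 mL pipettes on a pipette centrifuge for the same total time. The hypg75s cells therefore spent most of it at 1 g before a short spin at the end, and the hypg9 cells spent a shorter part of it at 1 g before a longer spin. No drug or genetic change was applied to either group, and every pipette was emptied into lysis buffer right after the spin. The control group Ctrl stayed at 1 g in the same kind of pipette. Where other groups are mentioned, hypg20s is 20 s, hypg3, hypg5, hypg7 and hypg15 are 3, 5, 7 and 15 min and hypg60 is 60 min at 9 g, and Ctrl60 is the 60 min control at 1 g by its labels. The count columns of Ctrl60 are named as a control plus HEPES, a pH buffer, and nothing else in the labels mentions that addition. Total RNA was extracted with QIAGEN RNeasy Mini kits, depleted of ribosomal RNA and sequenced strand-specifically. Messenger RNAs and noncoding RNAs without a poly(A) tail can both be counted in this way. The question is which transcripts differ between the early and the later minutes of 9 g, seen without a shared control group.

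RNA levels can change within minutes only where an RNA is made or destroyed quickly. The messenger RNAs of immediate early genes and of transcription factors such as MYC are of that kind, since they carry signals for rapid decay and their genes respond to kinases without new protein synthesis. Ribosomal protein, histone and metabolic messenger RNAs are abundant and mostly long-lived, and the small nuclear RNAs of the spliceosome, the Y RNAs that bind the Ro60 protein and the mitochondrial transfer RNAs are short, folded and normally stable.

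The 12 libraries held between 28280044 and 40267956 counts, and for 9 of 10 library measures, total counts among them, two-sided exact permutation tests between the groups gave p from 0.11 to 0.606 (n = 6 and 6, adjusted p from 0.324 to 0.606 over the 10). The share of counts in small nuclear RNA genes was 0.0199% ± 0.00521 (SD) at hypg9 against 0.0311% ± 0.0047 at hypg75s, with overlapping groups (exact permutation test, n = 6 and 6, p = 0.00866, adjusted p = 0.0866). T lineage markers were expressed in all 12 libraries (CD3E at a mean of 551 CPM at hypg75s and 541 CPM at hypg9, where CPM are counts scaled to a common library size), while the B cell marker MS4A1, the globin gene HBB, EPCAM and COL1A2 were at 0 in all of them. CD79A, a B cell marker by name, reached up to 66.6 CPM and COL1A1 up to 7.24 CPM, without a called difference between the groups (adjusted p = 0.528 and 0.244). Among the 9 g groups of libraries 13 to 48 the library numbers follow the time at 9 g, from 19 to 24 for hypg75s and from 37 to 42 for hypg9, while hypg3 and hypg15 carry later numbers. Handling or sequencing order therefore cannot be told apart from time. Nothing in the labels says that the libraries of a group came from separate cultures, so the p-values measure the spread between libraries, which may be technical.

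Of 16319 genes tested, 287 (1.76%) were higher and 529 (3.24%) were lower at hypg9 than at hypg75s, which is 5.00% in all (edgeR's quasi-likelihood test, Benjamini-Hochberg adjusted p below 0.05). These genes are called differentially expressed below. In 571 genes (3.50%) the 6 libraries of one group did not overlap with the 6 of the other, 185 of them higher (1.13%) and 386 lower (2.37%). The changes were small. Genes called higher had a median log2 fold change of 0.45 and genes called lower of -0.20, and 37 genes passed an absolute log2 fold change of 1. The 2 sets were unlike in kind: genes called higher had a median level of 3.48 CPM and 41.5% of them were protein-coding, and genes called lower had a median level of 57.1 CPM and 87.9% of them were protein-coding. Among all genes tested the median level was 11.5 CPM and 74.9% were protein-coding. The number of calls depended on the model and on single libraries. With 3 surrogate variables, which are hidden sources of variation estimated from the counts, 43 genes were higher and 272 lower, and 141 of the 816 calls were shared with that fit. Without library 38 of hypg9, 92 genes were higher and 164 lower, and without library 20 of hypg75s 97 were higher and 169 lower. Without library 37, 39 or 40 there were 137 higher and 297 lower, 143 and 201, and 143 and 286. Leaving out library 19, 21, 22, 23 or 24 gave 207 higher and 267 lower, 246 and 319, 171 and 304, 128 and 310, and 179 and 299. Without library 41 or 42 the numbers grew to 468 higher and 612 lower and to 486 and 768.

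The protein-coding genes that fell most, among those with at least 10 CPM and no overlap between the groups, were NR6A1, KCTD21, AHDC1, JUN, MYCN, MYC, MEX3D and ZFTA. MYC, the transcription factor that drives growth genes, lay between 483 and 547 CPM at hypg75s (median 523) and between 381 and 414 CPM at hypg9 (median 399). All 6 hypg9 libraries thus sat below all 6 hypg75s libraries, at a log2 fold change of -0.37 ± 0.0338 (SE, adjusted p = 9.6e-05). In Ctrl the mean was 412 CPM. JUN, the AP-1 subunit, ran from 20.6 to 24.0 CPM at hypg75s (median 21.8) and from 14.9 to 18.7 CPM at hypg9 (median 16.5), again without overlap. Its log2 fold change was -0.42 ± 0.0636 (adjusted p = 0.00202), and its mean in Ctrl was 15.8 CPM. NR6A1, an orphan nuclear receptor, went from 11.9 to 14.4 CPM (median 13.1) to between 8.53 and 9.38 CPM (median 9.23), a log2 fold change of -0.55 ± 0.0623 (adjusted p = 3.52e-04), with 8.46 CPM in Ctrl. In these 3 genes the level at hypg75s was above that of Ctrl, and at hypg9 none was called against Ctrl (adjusted p = 0.568 for MYC, 0.477 for JUN and 0.191 for NR6A1). AHDC1, an AT-hook protein, had 64.4 to 71.3 CPM at hypg75s, 45.8 to 52.9 CPM at hypg9 and a mean of 45.0 CPM in Ctrl (log2 fold change -0.44, adjusted p = 9.6e-05), and at hypg9 it was still called above Ctrl (log2 fold change 0.18, adjusted p = 0.00877). KCTD21, an adaptor of cullin ubiquitin ligases, MYCN, the neural paralog of MYC, MEX3D, an RNA-binding protein, and ZFTA, a zinc finger protein, had log2 fold changes of -0.45, -0.38, -0.36 and -0.36. Of the 8 genes, 7 kept their call under every alternative processing tried. The exception was MYCN with 3 surrogate variables in the model (adjusted p = 0.0598).

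**Figure D1:**
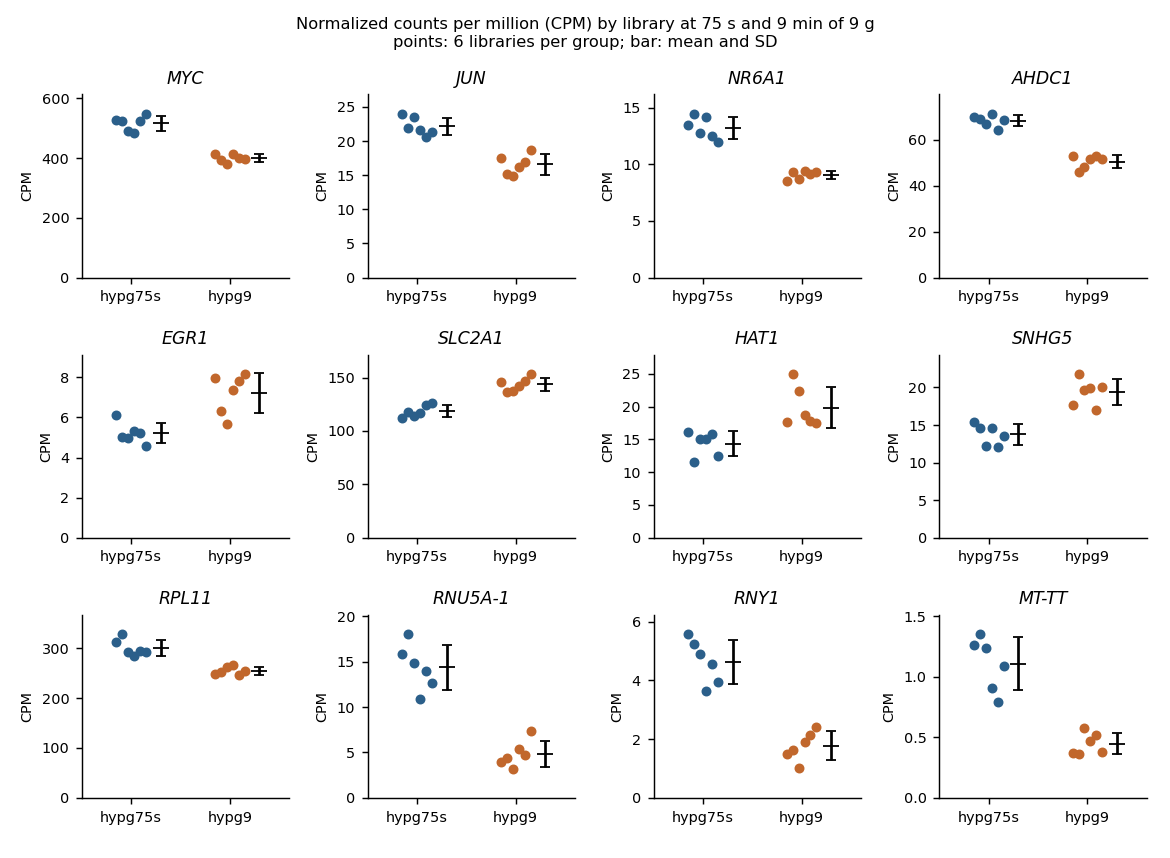
Normalized counts (CPM, y axes from 0) of 12 genes in the 6 hypg75s and 6 hypg9 libraries. Points are libraries and bars give the mean and SD. Groups do not overlap except for EGR1, and the fall of RNU5A-1 and RNY1 is larger than that of MYC or JUN.

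The immediate early genes, which cells switch on within minutes of a stimulus, did not move as a block. Of 24 tested, 4 were lower (JUN, MYC, JUND and ATF3) and 2 were higher (EGR1 and EGR3), or 16.7% and 8.33% against 3.24% and 1.76% of all genes tested, and their median log2 fold change was -0.10 against 0.00 over all genes tested. EGR1, a zinc finger factor induced by MAP kinase signals, ran the other way from JUN. It lay between 4.58 and 6.11 CPM at hypg75s (median 5.13) and between 5.67 and 8.15 CPM at hypg9 (median 7.58), with 8.07 CPM in Ctrl. The groups overlapped at the edge, and the log2 fold change was 0.46 ± 0.0973 (adjusted p = 0.0171). EGR3, its paralog, rose from a mean of 0.475 to 0.992 CPM (log2 fold change 1.02, adjusted p = 0.0237), a level of few reads. JUND fell by 0.34 and ATF3 by 0.20 on the log2 scale (adjusted p = 0.0459 and 0.0458). FOS, the partner of JUN in AP-1, was low in both groups, with medians of 1.51 and 1.44 CPM (adjusted p = 0.635). IER2, DUSP1 and NFKBIA, feedback genes of growth factor, MAP kinase and NF-kB signalling, had adjusted p-values of 0.684, 0.531 and 0.511. The number of immediate early genes called lower was 2 without library 19, 20, 22, 23, 37, 38, 39 or 40 and 7 without library 42. Only 1 was called higher without library 23, 37 or 38, and none with 3 surrogate variables, where EGR1 had a log2 fold change of 0.26 (adjusted p = 0.53).

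CHAC1 and SESN2, a glutathione-degrading enzyme and a regulator of mTORC1 that the transcription factor ATF4 induces, were lower at hypg9 (log2 fold change -0.39 and -0.22, adjusted p = 0.0222 and 0.0407), the only 2 called among 18 ATF4 and unfolded protein response genes (11.1% lower, against 3.24% of all genes tested), with a list median of -0.02. CHAC1 ranged from 6.05 to 8.02 CPM at hypg75s and from 4.84 to 5.98 CPM at hypg9, with no overlap and a Ctrl mean of 4.17 CPM. SESN2 overlapped between the groups and lost its call in 9 of the 12 fits without 1 library, CHAC1 in 4 of them, those without library 20, 22, 38 or 39, and both lost it with 3 surrogate variables (adjusted p = 0.222 and 0.21). None of 22 chaperone genes driven by HSF1, the heat shock factor, was called. HSP90AA1, the inducible HSP90 gene, ranged from 415 to 658 CPM at hypg75s and from 531 to 792 CPM at hypg9, at a log2 fold change of 0.32 ± 0.111 (adjusted p = 0.105). DESeq2 called 4 of the 22 higher, the fit with 3 surrogate variables 2, and 5 were higher without library 41, 3 without library 42 and 1 without library 24. Of 17 NF-kB subunit and feedback genes, NFKBIE, an inhibitor of NF-kB, was lower (5.88% of the list, log2 fold change -0.20, adjusted p = 0.0384) and lost its call in 10 of the 12 fits without 1 library. No gene was called among 14 dual specificity phosphatase and Sprouty genes, 14 NRF2 antioxidant genes, 20 store-operated calcium entry and NFAT genes, 16 nuclear lamina and linker genes or 43 proteasome subunits.

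Genes that could bear on mechanical load gave single calls, to be read against the 3.24% lower and 1.76% higher of all genes tested. Of 12 mechanosensitive and volume-regulated channel genes, LRRC8A, the obligatory subunit of the volume-regulated anion channel, was lower (8.33%). It ranged from 96.0 to 111 CPM at hypg75s and from 90.1 to 97.1 CPM at hypg9, with overlap (log2 fold change -0.13 ± 0.0354, adjusted p = 0.0427). Of 32 actin cytoskeleton genes, CAPZA1, a subunit of the capping protein of actin filaments, was higher and PFN1, the actin monomer binding protein profilin, was lower, 3.12% of the list each (log2 fold change 0.40 and -0.14, adjusted p = 0.0478 and 0.047). LRRC8A and PFN1 each lost their call in 10 of the 12 fits without 1 library and CAPZA1 in 9, and the GC correction gave LRRC8A and PFN1 adjusted p-values of 0.139 and 0.1. No call was made among 19 cohesin and condensin genes (median log2 fold change 0.12) and 14 nuclear long noncoding RNAs (median 0.16). After the GC correction these medians were 0.03 and 0.07, with 2 and 1 genes called higher, and with 3 surrogate variables they were 0.08 and -0.05. SRSF9 of 19 SR protein and CLK genes, BID of 15 BCL2 family genes, EIF4ENIF1 of 20 stress granule and P body genes and WDR33 of 27 genes of 3′ end processing and early elongation were lower, shares of 5.26%, 6.67%, 5.00% and 3.70%, by 0.11 to 0.17 on the log2 scale, and each lost its call in 7 or more of those 12 fits.

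Among T cell genes, 3 of 16 T-lineage transcription factors were lower (18.8%, against 3.24% of all genes tested) and none higher, with a list median of -0.03. TAL1, the basic helix-loop-helix factor that is switched on in this leukemia, lay between 278 and 296 CPM at hypg75s and between 247 and 273 CPM at hypg9, without overlap (log2 fold change -0.14 ± 0.0305, adjusted p = 0.0181). GATA3 and TCF3, its partners in a complex on DNA, had log2 fold changes of -0.18 and -0.11 (adjusted p = 0.0349 and 0.0456). TAL1 lost its call in 4 of the 12 fits without 1 library, GATA3 in 8 and TCF3 in 11, TAL1 and TCF3 lost it with 3 surrogate variables, and GATA3 and TCF3 also lost it with the correction for GC content described below. Of 27 genes of the T cell receptor complex and its signalling, TRBC2, a constant segment of the receptor beta chain, was lower (3.70% of the list, log2 fold change -0.18, adjusted p = 0.0233). It lost its call in 9 of those 12 fits and with 3 surrogate variables. CD3E had a log2 fold change of -0.03 (adjusted p = 0.699).

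The largest falls in the comparison were those of short structured RNAs. How fully and how evenly the extraction recovered RNAs this short was not tested. Of 20 spliceosomal small nuclear RNA (snRNA) genes tested, 8 (40.0%) were lower, against 3.24% of all genes tested, and none was higher, with a median log2 fold change of -0.42 over the 20. Besides the U5, U4 and U6ATAC genes described below, the 8 comprise RNU6-9 and the U1 variants RNVU1-30 and RNVU1-31. Of 17 small RNAs of RNA polymerase III tested, 4 (23.5%, against 3.24%) were lower and none higher, although the median of the 17 was 0.07 and 11 values were positive. The 4 were RNY1, RNY3 and RNY4, which are Y RNAs, and RNU6ATAC, the U6 RNA of the minor spliceosome, which is counted in both lists. Of 28 genes of the mitochondrial genome tested, 5 (17.9%, against 3.24%) were lower, the transfer RNAs MT-TV, MT-TT, MT-TP, MT-TM and MT-TA, and none higher. Over all 265 tested genes with an exon length below 200 bases, 27 (10.2%) were lower and 2 higher, against 3.24% and 1.76% of all genes tested, while the median log2 fold change of the 265 was 0.00 with 136 positive values, and the 27 comprised 9 snRNAs, 9 snoRNAs and scaRNAs, 5 mitochondrial tRNAs, the 3 Y RNAs and TRAJ1, a joining segment of the T cell receptor alpha locus. Several of these RNAs exist in near-identical copies, between which read assignment is uncertain, and the sequences of the U4 pair are shown for that reason. They are the GENCODE 29 transcripts of GRCh38, 5′ to 3′, with capitals at the bases in which the 2 copies differ. RNU4-1 lies at chr12:120293097-120293237 and RNU4-2 at chr12:120291763-120291903, both on the minus strand.
RNU4-1: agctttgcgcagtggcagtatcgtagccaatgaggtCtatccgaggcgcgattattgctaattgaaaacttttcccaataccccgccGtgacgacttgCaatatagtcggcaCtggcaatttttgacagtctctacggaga
RNU4-2: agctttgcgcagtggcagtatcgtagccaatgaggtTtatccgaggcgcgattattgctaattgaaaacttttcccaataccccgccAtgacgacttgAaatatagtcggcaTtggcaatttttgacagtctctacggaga
The U4 copies are identical at 137 of 141 positions.

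RNU5A-1, a U5 RNA that holds the exon ends during splicing, ranged from 10.9 to 18.0 CPM at hypg75s (median 14.4) and from 3.21 to 7.39 CPM at hypg9 (median 4.54). No hypg9 library reached the lowest hypg75s library, and the log2 fold change was -1.58 ± 0.163 (adjusted p = 1.47e-04). RNU5B-1 moved by much the same amount, with medians of 5.48 and 1.81 CPM and a log2 fold change of -1.46 ± 0.182 (adjusted p = 5.25e-04). The copies of U4, the RNA that keeps U6 inactive until the spliceosome is assembled, fell less, from a mean of 105 to 58.9 CPM for RNU4-1 and from 112 to 62.3 CPM for RNU4-2 (log2 fold change -0.84 and -0.85, adjusted p = 0.0233 and 0.0227). RNU6ATAC fell from a median of 6.51 to 2.04 CPM without overlap (log2 fold change -1.46 ± 0.184, adjusted p = 5.25e-04). Other snRNAs did not move this way: RNU4ATAC, the U4 RNA of the minor spliceosome, had a log2 fold change of -0.15 (adjusted p = 0.454) and RNU1-1 of -0.05 (adjusted p = 0.874). RNU4ATAC is 127 and RNU6ATAC 126 bases long. Among the 99 tested genes below 200 bases with a mean of at least 1 CPM at hypg75s, 20 (20.2%) were lower. The share was 10.2% without that floor and 3.24% over all genes tested, and the part of length in the falls was not tested.

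The Y RNAs RNY1 and RNY4 are shown because they fell by amounts near those of the U5 RNAs and are no part of the spliceosome, and the mitochondrial valine tRNA because its fold change was the largest of the 16319 genes tested. RNY1 lies at chr7:148987136-148987248 on the minus strand, RNY4 at chr7:148963315-148963410 on the plus strand and MT-TV at chrMT:1602-1670 on the plus strand.
RNY1: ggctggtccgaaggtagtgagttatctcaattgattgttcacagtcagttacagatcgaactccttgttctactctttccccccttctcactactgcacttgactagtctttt
RNY4: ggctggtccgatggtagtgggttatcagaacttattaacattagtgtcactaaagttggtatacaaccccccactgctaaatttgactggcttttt
MT-TV: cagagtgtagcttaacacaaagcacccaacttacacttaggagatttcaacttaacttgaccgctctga
RNY1 lay between 3.63 and 5.56 CPM at hypg75s (median 4.72) and between 1.03 and 2.42 CPM at hypg9 (median 1.78), a log2 fold change of -1.40 ± 0.165 (adjusted p = 4.2e-04). RNY4 had medians of 1.77 and 0.448 CPM and a log2 fold change of -1.84 ± 0.178 (adjusted p = 9.6e-05). RNY3 fell from a mean of 2.01 to 0.772 CPM (log2 fold change -1.41, adjusted p = 0.00712). In contrast, RN7SL1, the RNA of the signal recognition particle and by far the most abundant of this list at a mean of 52090 CPM at hypg75s, had a log2 fold change of 0.07 ± 0.0781 (adjusted p = 0.621). MT-TV was scarce, with 0.321 to 0.663 CPM at hypg75s (median 0.436) and 0 to 0.127 CPM at hypg9 (median 0.0722). Its log2 fold change was -2.64 ± 0.358 (adjusted p = 9.46e-04). MT-TT, the threonine tRNA, had medians of 1.16 and 0.427 CPM (log2 fold change -1.29 ± 0.18, adjusted p = 0.00112), and MT-TP, the proline tRNA, of 13.6 and 10.8 CPM (log2 fold change -0.31, adjusted p = 0.0181). Over the 28 genes of the mitochondrial genome the median log2 fold change was -0.31 and 26 values were negative. The mitochondrial ribosomal RNAs MT-RNR1 and MT-RNR2 had log2 fold changes of -1.38 ± 0.644 and -1.28 ± 0.552 (adjusted p = 0.215 and 0.18). MT-RNR1 reached 46.0 CPM in its highest hypg75s library, but its medians were 4.94 CPM at hypg75s and 4.44 CPM at hypg9. MT-RNR2 reached 17.4 CPM, with medians of 2.965 and 2.04 CPM. The mitochondrial messenger RNAs ran from -0.37 for MT-ND6 (adjusted p = 0.0885) to 0.01 for MT-CO1 (adjusted p = 0.911) on the log2 scale. RNU5A-1, RNU5B-1, RNU6ATAC, RNY1 and RNY4 kept their call under all 20 alternatives. MT-TV and MT-TT lost it with 3 surrogate variables (adjusted p = 0.186 and 0.0938), and MT-TP lost it without library 20 or 38 and in the model of 48 libraries. The count of snRNA list members called lower was 4 without library 20, 37 or 38, 5 without library 40 and 3 with 3 surrogate variables. For the mitochondrial genome it was 2 without library 38, 3 without library 20 or 39 and 9 without library 42.

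Small nucleolar RNAs (snoRNAs), which guide the modification of ribosomal RNA, and their Cajal body relatives (scaRNAs) showed 11 lower (11.3%, against 3.24% of all genes tested) and 1 higher (1.03%, against 1.76%) of 97 tested, with a median log2 fold change of -0.03. SNORD13, which takes part in acetylation of 18S ribosomal RNA, lay between 8.11 and 10.4 CPM at hypg75s and between 5.32 and 8.31 CPM at hypg9 (log2 fold change -0.63 ± 0.109, adjusted p = 0.00544). SNORD89 was near 0.5 CPM or below in both groups (medians 0.527 and 0.282, log2 fold change -1.08, adjusted p = 0.016), and SCARNA7 had medians of 3.83 and 2.98 CPM (log2 fold change -0.52, adjusted p = 0.0165). The higher member was SNORD3B-2, a U3 copy, with a mean of 35.3 and 45.3 CPM (log2 fold change 0.36, adjusted p = 0.019). The number called lower was 2 without library 38, 3 without library 19, 20, 39 or 40, 5 without library 21, 23 or 37 and 20 without library 42, and it was 0 with 3 surrogate variables. The order of the libraries moves with these falls, and its part in them was not tested. The share of counts in snRNA genes is made up of the same snRNA counts and is no separate measure of the snRNA falls.

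The protein-coding genes that rose most, under the same rule, were HAT1, CYB5R4, UBR2, GSTCD, BIRC6, COPB1, SLC2A1 and POLE2. SLC2A1, the glucose transporter GLUT1, ranged from 112 to 126 CPM at hypg75s (median 117) and from 136 to 153 CPM at hypg9 (median 144), a log2 fold change of 0.27 ± 0.0371 (adjusted p = 9.46e-04). Its mean in Ctrl was higher than in either group, at 160 CPM. HK2, the hexokinase that traps the glucose in the cell, followed with medians of 107 and 122 CPM and 134 CPM in Ctrl (log2 fold change 0.17 ± 0.0375, adjusted p = 0.0193). Both were without overlap, and they were the only 2 of 19 glycolytic genes called (10.5% higher, against 1.76% of all genes tested). HK2 lost its call with 3 surrogate variables (adjusted p = 0.328) and with the length correction. The median of the 19 was -0.02 and GAPDH had a log2 fold change of -0.04 (adjusted p = 0.607). HAT1, which acetylates newly made histone H4, had medians of 15.0 and 18.2 CPM (log2 fold change 0.47 ± 0.105, adjusted p = 0.0209), and the Ctrl mean was 22.7 CPM. GSTCD and POLE2, a subunit of DNA polymerase epsilon, had log2 fold changes of 0.32 and 0.24, UBR2, a ubiquitin ligase of the N-degron pathway, of 0.34, and COPB1, a subunit of the COPI vesicle coat, of 0.29. CYB5R4, a reductase of cytochrome b5, and BIRC6, an inhibitor of apoptosis proteins with ubiquitin-conjugating activity, had log2 fold changes of 0.41 and 0.31 and lost their calls in 7 and 6 of the 12 fits without 1 library. COPB1 lost its call without library 38, and POLE2 with the GC correction (adjusted p = 0.0626). SLC2A1 alone of the 8 kept its call under all alternatives, and the others lost it with 3 surrogate variables.

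Some abundant gene families of growth and metabolism had more lower than higher calls. Of 84 cytosolic ribosomal protein genes 11 were lower (13.1%, against 3.24% of all genes tested) and none higher, with a median log2 fold change of -0.07, and 15 of the 84 values were positive. RPL11, which also binds MDM2, lay between 285 and 327 CPM at hypg75s and between 246 and 266 CPM at hypg9 (log2 fold change -0.24 ± 0.036, adjusted p = 0.00202), without overlap, and its Ctrl mean was 335 CPM. RPS21 and RPS27 had log2 fold changes of -0.22 and -0.21 (adjusted p = 0.00566 and 0.00855). RPL11 kept its call under every alternative. With 3 surrogate variables, however, the median of the list was 0.05 and 1 member was called, 3 members were called lower without library 20, 38 or 39, and 6 or 7 without library 19, 21, 23, 24 or 37. Of 77 mitochondrial ribosomal protein genes 2 were lower (2.60%, below the share over all genes), MRPS34 and MRPL20, with a list median of -0.02, which was 0.05 with 3 surrogate variables, and none higher, and neither was called without library 20, 38 or 39.

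Of 60 replication-dependent histone genes, whose messenger RNAs are made in S phase and end in a stem-loop, 7 were lower (11.7%, against 3.24% of all genes tested) and none higher, and 58 of the 60 log2 fold changes were negative (median -0.16). With 3 surrogate variables none was called and the median was -0.01. H2BC11 had medians of 923 and 803 CPM without overlap (log2 fold change -0.25 ± 0.0575, adjusted p = 0.0232), and H2AC16 and H3C11 had log2 fold changes of -0.28 and -0.27. None of the 60 was called without library 20, 23, 24, 38, 39 or 40, between 3 and 5 were called lower without library 19, 21, 22 or 37, 13 without library 41 and 24 without library 42. Of 80 nuclear genes of oxidative phosphorylation 6 were lower (7.50%, against 3.24%) and 1 was higher (1.25%, against 1.76%), with a median of -0.06. None was called with 3 surrogate variables, and the median was then 0.04. NDUFS5, a complex I subunit, lay between 71.9 and 80.0 CPM at hypg75s and between 63.6 and 68.3 CPM at hypg9 (log2 fold change -0.22 ± 0.0333, adjusted p = 0.00221), and ATP5ME of the ATP synthase had a log2 fold change of -0.33. NDUFV2, another complex I subunit, was the higher one, with medians of 3.91 and 5.54 CPM (log2 fold change 0.46 ± 0.102, adjusted p = 0.0194). It lost its call without library 20. Of the list, 2 members were lower without library 20 or 38, 3 without library 19, 23, 24, 37 or 39, and 9 without library 42. Of 72 kinesin, centromere and spindle genes 3 were lower, KIF18B, AURKA and KIF2C, and none higher, a share of 4.17% that is near the 3.24% of all genes tested, and the median was -0.01. KIF2C lost its call in 8 of the 12 fits without 1 library, and AURKA with 3 surrogate variables. In the latter fit KIF2C turned to a log2 fold change of 0.03 (adjusted p = 0.855). KIF18B, a kinesin of the spindle, had medians of 165 and 143 CPM without overlap (log2 fold change -0.21 ± 0.0313, adjusted p = 0.00202) and kept its call under all alternatives.

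**Figure D2:**
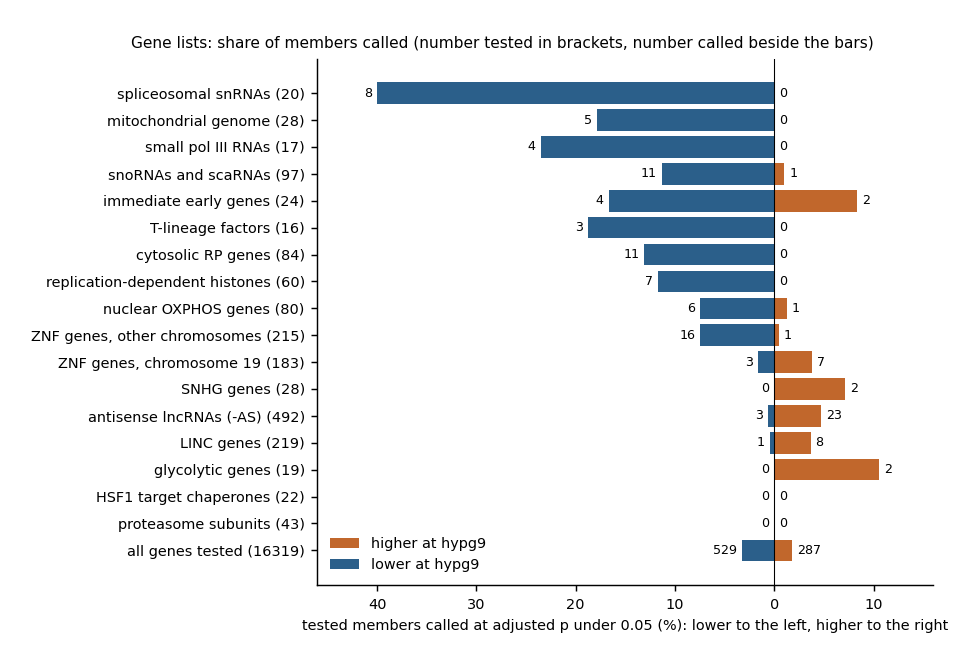
Share of the tested members of 17 gene lists, and of all genes tested, that were called lower (bars to the left) or higher (bars to the right) at hypg9, in percent on the x axis. The number tested stands in brackets and the numbers called beside the bars: 8 of 20 spliceosomal snRNAs were lower, and 23 of 492 antisense lncRNAs were higher.

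Long noncoding genes made up a large part of the genes called higher. Of 2437 tested, 130 (5.33%) were higher and 17 (0.698%) were lower, with a median log2 fold change of 0.10, whereas of 12226 protein-coding genes 119 (0.973%) were higher and 465 (3.80%) lower, with a median of -0.01. Antisense RNAs with names in -AS contributed 23 higher (4.67%) and 3 lower (0.610%) of 492, and intergenic RNAs named LINC contributed 8 higher (3.65%) and 1 lower (0.457%) of 219, against 1.76% and 3.24% of all genes tested. Without 1 library the higher ones ranged from 11 to 27 and from 3 to 8. Of 28 snoRNA host genes 2 were higher (7.14%, against 1.76%), SNHG5 and SNHG1, and none lower. SNHG5, whose introns give rise to snoRNAs, ranged from 12.1 to 15.5 CPM at hypg75s (median 14.1) and from 17.0 to 21.8 CPM at hypg9 (median 19.8). The groups did not overlap, and the log2 fold change was 0.49 ± 0.0763 (adjusted p = 0.00282), but 0.15 (adjusted p = 0.567) with 3 surrogate variables. THUMPD3-AS1, antisense to a tRNA methyltransferase gene, had medians of 15.4 and 21.5 CPM (log2 fold change 0.49 ± 0.0626, adjusted p = 6.03e-04), and ENSG00000262202, a gene without a symbol on chromosome 17, of 14.9 and 22.0 CPM (log2 fold change 0.51, adjusted p = 0.00544). LINC00115 had medians of 1.81 and 2.91 CPM (log2 fold change 0.64, adjusted p = 0.0019). CAPN10-DT had medians of 9.70 and 11.1 CPM (log2 fold change 0.27 ± 0.0657, adjusted p = 0.0312). It lost its call in 7 of the 12 fits without 1 library and with 3 surrogate variables. SNHG1 rose by 0.12 on the log2 scale (adjusted p = 0.0488), lost its call in 11 of the 12 fits without 1 library and had an adjusted p of 0.676 after the GC correction. Of 30 microRNA host genes 1 was higher, MIR4453HG, and 2 were lower, MIR223HG and MIR29B2CHG (3.33% and 6.67%, against 1.76% and 3.24% of all genes tested). MIR4453HG lost its call in 5 and MIR29B2CHG in 7 of the 12 fits without 1 library. With 3 surrogate variables MIR4453HG turned to a log2 fold change of -0.02 (adjusted p = 0.976). MIF-AS1 fell from a median of 10.9 to 7.24 CPM (log2 fold change -0.56 ± 0.0898, adjusted p = 0.00307), MIR223HG, the host gene of miR-223, from 22.9 to 18.1 CPM (log2 fold change -0.34 ± 0.0678, adjusted p = 0.0111), and PTMAP4, a pseudogene of prothymosin alpha that can share reads with its parent, from 38.7 to 29.9 CPM (log2 fold change -0.40, adjusted p = 0.00234). Long noncoding genes called higher numbered 48 without library 20, 50 without library 38, 67 without library 23, 72 without library 37, between 78 and 84 without library 19, 22, 24, 39 or 40, and 134 without library 41 or 42. Protein-coding genes called higher ranged from 27 without library 38 to 312 without library 42, and those called lower from 137 to 648 without the same libraries. In the fit with 3 surrogate variables 29 protein-coding genes were higher and 256 lower, the long noncoding genes called higher numbered 9, their median was 0.01, and SNHG1, THUMPD3-AS1, LINC00115 and PTMAP4 lost their calls too.

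Zinc finger genes with ZNF symbols, many of them transcription repressors, were listed by location. On chromosome 19, where the largest clusters of these genes lie, 7 were higher (3.83%, against 1.76% of all genes tested) and 3 lower (1.64%, against 3.24%) of 183 (median log2 fold change 0.09), and on other chromosomes 1 was higher (0.465%) and 16 lower (7.44%) of 215 (median -0.02). ZNF14 of chromosome 19 had medians of 2.86 and 3.87 CPM (log2 fold change 0.47 ± 0.105, adjusted p = 0.0208). ZNF786 of chromosome 7 had medians of 21.5 and 16.9 CPM (log2 fold change -0.33 ± 0.0542, adjusted p = 0.00442), and ZNF618 of chromosome 9 had 25.5 and 21.4 CPM (log2 fold change -0.25, adjusted p = 0.00612), both without overlap. ZNF579 and ZNF584, which lie on chromosome 19 too, fell by 0.40 and 0.23 on the log2 scale. The 7 higher calls on chromosome 19 became 0 without library 20 or 38, 1 without library 23, 37, 39 or 40, 3 without library 22 or 24, and 11, 14 and 12 without library 21, 41 and 42. In addition, the median of that list was 0.00 after the GC correction and -0.05 with 3 surrogate variables. ZNF14, ZNF786, ZNF579 and ZNF584 lost their calls in the latter fit. On the other chromosomes 5 were lower without library 20 or 38, 7 without library 39, 9 without library 22 and 10 without library 24 or 40, and 4 and 7 were higher without library 41 and 42. The difference between the chromosomes was not tested.

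The log2 fold change was related to base composition. Across the genes tested, Spearman's rho between the log2 fold change and the GC content of the longest transcript was -0.45, given as a description, since all points share the same 12 libraries, and with exon length it was 0.06. The rho with GC content was -0.33 without library 39 and -0.10 with 3 surrogate variables. Genes with a GC content up to 40% gave 57 higher (2.52%) and 7 lower calls (0.310%) of 2261, and genes above 60% gave 12 higher (0.50%) and 147 lower (6.12%) of 2401, against 1.76% and 3.24% of all genes tested. Libraries within a group differed in this trend as well. The rank correlation of a library's deviations from the mean with GC content ran from -0.13 to 0.52 at hypg75s and from -0.66 to 0.41 at hypg9, where libraries 41 and 42 lay at 0.27 and 0.41 and the other 4 below 0 (exact permutation test between groups, n = 6 and 6, p = 0.117, adjusted p = 0.324). After a smooth curve of counts against GC content had been removed from each library, 349 genes were higher (2.14%) and 610 lower (3.74%), 5.88% in all, and 218 of the 287 and 399 of the 529 genes were still called. In that fit the GC bins were closer to each other, with 49 higher and 43 lower at up to 40% and 46 higher and 88 lower above 60%. Chromosomes 16 to 22 gave 60 higher (1.36%) and 206 lower calls (4.67%) of 4408, against 227 (1.91%) and 318 (2.68%) of 11858 on the other nuclear chromosomes, and after the GC correction 93 and 182 against 256 and 423. With 1 library left out these counts ranged from 18 to 79 higher and from 65 to 288 lower on chromosomes 16 to 22, and from 70 to 410 and from 97 to 471 on the others, with the lowest counts without library 20 or 38 and the highest without library 41 or 42. They were 13 and 103 against 30 and 167 with 3 surrogate variables.

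**Figure D3:**
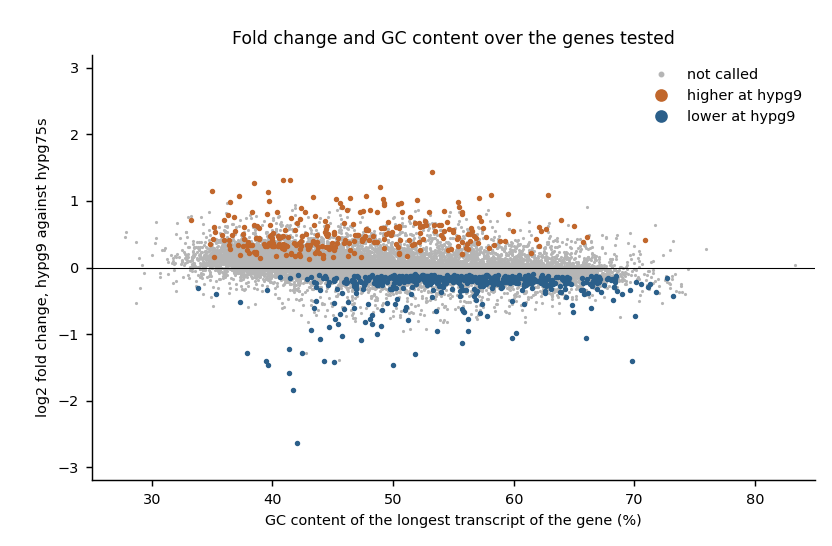
Log2 fold change of hypg9 against hypg75s (y axis) by GC content of the longest transcript in percent (x axis), for the genes tested that have a GC value. Orange points are the genes called higher and blue points the genes called lower. Higher calls lie mostly below and lower calls mostly above the median GC content of 49.3%.

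Against Ctrl, which both comparisons then share, hypg75s had 2738 higher (16.8%) and 2348 lower genes (14.4%) of 16261, 31.3% in all, and hypg9 had 1849 higher (11.3%) and 1366 lower genes (8.34%) of 16385, 19.6% in all. After the GC correction the balance turned to lower in both, with 1616 higher and 2296 lower genes at hypg75s and 1790 and 3036 at hypg9. The median log2 fold change against Ctrl of the genes called higher between hypg75s and hypg9 was -0.19 at hypg75s and 0.31 at hypg9, and that of the genes called lower was 0.18 and -0.01. Levels in the other groups of libraries 1 to 48, which played no part in the calls and do not include hypg3 and hypg15, placed the differences in time. For each library the median log2 difference from the Ctrl mean was taken over the genes called higher and over those called lower. Over the genes called lower it was 0.16 ± 0.0413 (SD, n = 6) at hypg20s, 0.06 ± 0.0738 at hypg5, -0.01 ± 0.0519 at hypg7 and -0.01 ± 0.0505 at hypg60. At hypg75s and hypg9, the groups that chose the genes, it was 0.15 and -0.03. The medians of the genes called lower were thus above 0 at hypg20s and hypg75s and within 0.03 of 0 at hypg7, hypg9 and hypg60. Over the genes called higher the values were -0.11 ± 0.0221 at hypg20s, 0.07 ± 0.0557 at hypg5, 0.15 ± 0.0469 at hypg7 and 0.21 ± 0.0675 at hypg60, with -0.17 at hypg75s and 0.22 at hypg9. That set was below Ctrl at hypg20s and hypg75s and above it at hypg5, hypg7, hypg9 and hypg60. In Ctrl60, the medians were 0.02 ± 0.0446 for the higher and -0.01 ± 0.0611 for the lower genes. Named genes followed different courses. MYC had means of 535, 516, 455, 420, 400 and 353 CPM at hypg20s, hypg75s, hypg5, hypg7, hypg9 and hypg60, and JUN of 21.6, 22.2, 19.5, 18.2, 16.6 and 15.8 CPM. SLC2A1 lay at 119 CPM at hypg20s and hypg75s and then at 125, 133, 144 and 152 CPM. RNU5A-1 began at 20.2 CPM in Ctrl and stood at 17.3, 14.4, 9.93, 5.82, 4.84 and 6.57 CPM, which is in the order of the library numbers up to hypg9. NR6A1 was at 12.2 CPM at hypg60, above its 9.06 CPM at hypg9.

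**Figure D4:**
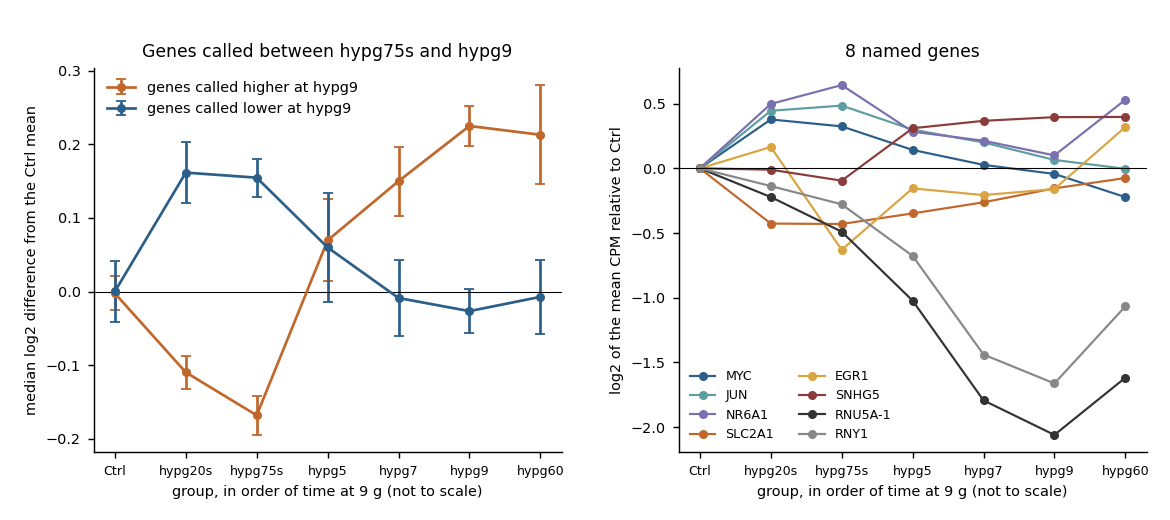
Left, the median log2 difference from the Ctrl mean over the genes called higher (orange) and lower (blue) at hypg9, as mean and SD of 6 libraries per group. The genes called lower stand at 0.16 at hypg20s and at -0.01 at hypg7. Right, log2 of the mean CPM of 8 genes relative to Ctrl. Groups on the x axes are in order of time, not to scale.

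A later and an earlier time were also compared in libraries of which none enters the hypg9 and hypg75s comparison. Between hypg7 and hypg20s, 1333 genes were higher (8.18%) and 1469 lower (9.01%) of 16297, 17.2% in all. Of the genes called higher at hypg9 and tested in both, 136 of 283 were also higher there (48.1% of the 283, 10.2% of the 1331 higher there), and of the genes called lower, 321 of 528 were also lower (60.8% of the 528, 21.9% of the 1466). The log2 fold change had the same sign in 276 of the 283 and in 520 of the 528, while 53.8% of all genes tested in both were positive there. Between hypg15 and hypg3, which lie in another block of library numbers, 271 genes were higher (1.70%) and 134 lower (0.842%) of 15915, 2.54% in all, with library 75 of hypg15 left out because it lacks counts over large parts of the genome. There 54 of 278 were also higher (19.4%, and 20.1% of the 268) and 51 of 528 also lower (9.66%, and 38.1% of the 134). The sign was the same in 220 of the 278 (79.1%) and in 431 of the 528 (81.6%), while 46.5% of all genes tested in both were positive there. With library 75 that comparison had 163 higher and 72 lower genes. The GC correction gave 410 higher and 489 lower genes there, and 1012 and 2671 between hypg7 and hypg20s, and the overlaps were taken without it. Spearman's rho between log2 fold change and GC content was -0.46 between hypg7 and hypg20s and 0.39 between hypg15 and hypg3. It was -0.45 between hypg9 and hypg75s, and the part of this trend in the shared signs was not tested. The small RNAs differed between these comparisons. RNU5A-1 had a log2 fold change of -1.57 (adjusted p = 0.00571) between hypg7 and hypg20s and of -0.12 (adjusted p = 0.797) between hypg15 and hypg3, and RNY1 had -1.29 (adjusted p = 0.0139) and -0.08 (adjusted p = 0.824). MYC had -0.35 (adjusted p = 3.73e-04) and -0.42 (adjusted p = 5.1e-04). EGR1 went in opposite directions, with -0.37 (adjusted p = 0.0096) and 0.53 (adjusted p = 0.0247). KCTD21 had -0.39 (adjusted p = 0.00691) and -0.48 (adjusted p = 0.0099). Whether the differences between the comparisons exceed their error was not tested. The 2 control groups Ctrl60 and Ctrl differed in 1 higher (0.00621%) and 1 lower gene (0.00621%) of 16109 (0.0124% in all, edgeR's quasi-likelihood test), with 578 genes at an unadjusted p below 0.05. After the GC correction 2 genes were higher and 6 lower between them, with 748 genes at an unadjusted p below 0.05.

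**Figure D5:**
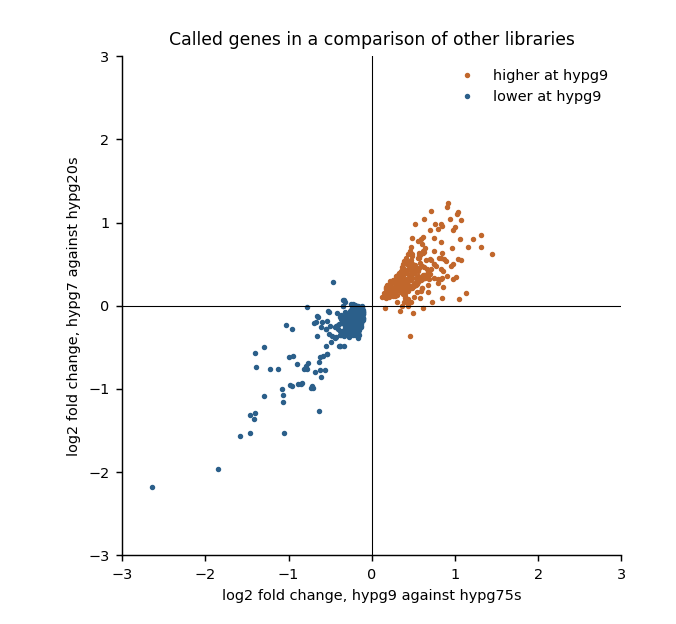
Log2 fold change of hypg7 against hypg20s (y axis) and of hypg9 against hypg75s (x axis) for the called genes tested in both. The comparisons share no library, and 276 of 283 orange and 520 of 528 blue points have the same sign on both axes. Over all genes tested, Spearman's rho with GC content was -0.46 for the y axis and -0.45 for the x axis.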

How the data were processed

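Per the labels and the methods, the authors trimmed paired reads with Trim Galore 0.6.5, aligned them with STAR 2.7.3a to GRCh38 and counted read pairs per gene (Ensembl 104, reverse strand) with featureCounts, version 2.0.1 in the submitters' processing notes and 2.0.3 in the file header. The deposited table holds raw counts for 80 libraries. Lines of 1 broken record were left out, leaving 60663 genes. Here edgeR 4.0.16 (R 4.3.3) fitted 6 against 6 libraries without covariates (TMM scaling, filterByExpr with a minimum count of 10, quasi-likelihood F test, Benjamini-Hochberg adjusted p below 0.05). CPM are counts scaled to a common library size with TMM factors over libraries 1 to 48, and 0.5 CPM was added before log2 in the time course. Non-overlap compares TMM-scaled CPM. Alternatives were DESeq2 1.42.0, RLE or total-count scaling, no filter, a model of 48 libraries, 3 surrogate variables (sva 3.50.0), corrections for GC content or length, and leaving out each library.

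The members and the 35 gene lists were chosen with earlier results of these data known. Named genes were the 8 largest rises and 8 largest falls among called protein-coding genes with at least 10 CPM and no overlap, up to 4 and 4 of other biotypes under the same rule, the 3 called members with the smallest p of each list, and a set of fixed genes (HSP90AA1, GAPDH, FOS, IER2 and the like). JUND, ATF3, EGR3, RNY3, RNU4-1, RNU4-2, RNU6-9, RNVU1-30, RNVU1-31, MT-TM, MT-TA, RNU4ATAC, RNU1-1, RN7SL1, SNORD3B-2, TRAJ1, MT-RNR1, MT-RNR2, MT-ND6 and MT-CO1 were named after their values were seen. The marker genes of other cell types come from a separate list. Some sequences are not reported here.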

Additional observations from a re-analysis of the deposited data

Results flagged for a closer look

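Among the 12 libraries, 204 sets of 6 values (named genes and library measures by group) were examined for a highest or lowest library far from the rest, by Dixon's test, and 5 were past it. Chance gives about 1 in 20. BID, a pro-apoptotic BCL2 family gene, reached 144 CPM in library 40 of hypg9, against a group median of 131 CPM. SNORD13 reached 8.31 CPM in library 42 of hypg9, against a median of 5.62 CPM. ZNF398 was at 41.7 CPM in library 23 of hypg75s, its lowest. LINC01144 was at 2.27 CPM in library 39 of hypg9, its lowest, and INTS6-AS1 at 2.81 CPM in library 38 of hypg9, its highest.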

How the results depend on the processing

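Of 92 named genes 77 were called, and 20 of these kept the call under all 20 alternatives. Genes called higher numbered 43 with 3 surrogate variables, 506 with DESeq2 and between 92 and 486 with 1 library left out. Genes called lower numbered 272 with 3 surrogate variables, 344 in 1 model of 48 libraries, 336 with scaling by total counts and between 164 and 768 with 1 library left out. With 3 surrogate variables 13.7% of calls were higher, against 35.2% in the reported fit, and without the filter on low counts 48.1%. For the other comparisons, the GC correction gave 2671 genes lower between hypg7 and hypg20s, 410 higher and 489 lower between hypg15 and hypg3, 1616 higher between hypg75s and Ctrl and 3036 lower between hypg9 and Ctrl, and including library 75 gave 163 higher and 72 lower between hypg15 and hypg3. The cause was not tested.

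With 3 surrogate variables the log2 fold change turned to 0.0308 for KIF2C, -0.0176 for MIR4453HG, 0.12 for GAPDH, 0.0222 for DUSP1, 0.0046 for HSPA1B, 0.0216 for DNAJB1, 0.0297 for CD3E, 0.11 for ACTB, 0.0039 for TTC34 and -0.0428 for IFI16. With the GC correction it turned to 0.0022 for GAPDH, 0.0192 for IER2, 0.0271 for ACTB, 0.0124 for NECAB3, -0.041 for ZCRB1, -0.0422 for CKAP2 and -0.0476 for IFI16. For ACTB the log2 fold change was 0.01996 with scaling by total counts and lay between -0.0178 and 0.028 with 1 library left out. Of these genes, KIF2C and MIR4453HG were called in the reported fit. No paired analysis was made, because the labels name no pairing of libraries between the groups. They do not exclude a shared block by position within the group. The rank correlation of a library's deviations with GC content was lowest in libraries 21 and 39 (-0.13 and -0.66). It was highest in libraries 24 and 42 (0.52 and 0.41), and each of these pairs shares a position. Libraries 20 and 38 share a position too but lay at 0.30 and -0.59. An effect of position was not tested. The scarce MT-TV, at 0 to 0.127 CPM at hypg9, rests on few reads per library.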
